A study of Mus musculus with 6 samples.

Results

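Transcripts of 6 matrix metalloproteinases (Mmp2, Mmp3, Mmp9, Mmp13, Mmp14 and Mmp16) and 4 tissue inhibitors of metalloproteinases (Timp1, Timp2, Timp3 and Timp4) were examined in sorted mouse cartilage cells. The 10 genes are the rows with these symbols among 54532 genes of a count table. They were chosen with measured values of these same libraries in view, above all the difference of Mmp13 between the 2 populations. Their levels and log2 fold changes (log2FC) are therefore a description and carry no test. The study asked how the RNA of Gli1+ cells, put forward as chondrogenic progenitors, differs from that of the other cells of the cartilage. Gli1+ cells (CD45-CD31-Ter119-tdTomato+) and Gli1- cells (CD45-CD31-Ter119-tdTomato-) were represented by 3 RNA-seq libraries each. Both came from the same 1-month-old Gli1-CreERT2; tdTomato mice (strain background c57BL/6), taken 24 h after tamoxifen, so the Cre allele, the Ai9 reporter and tamoxifen were common to both populations, and mice of both sexes were used in the study. Cre is made from the Gli1 locus, and the reporter marks cells in which that locus was active when tamoxifen was given. The labels give the tissue as growth plate, whereas the study's text gives costal cartilage, which was digested overnight with collagenase before the sort.

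Matrix metalloproteinases are zinc enzymes, made as inactive precursors, that cut the proteins of the extracellular matrix. Mmp13 is the main collagenase of rodents and cuts the type II collagen of cartilage, and in the growth plate it is best known from late hypertrophic chondrocytes and from osteoblasts. TIMPs bind the active enzymes and block them, so both sides together set how much matrix is cut. RNA levels show neither activation of the precursors nor binding of the inhibitors.

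The libraries held between 17114101 and 18602482 counts. Levels are given as CPM, that is, normalised read counts set to a common library size by TMM scaling. Gli1 stood at 4.55, 6.39 and 7.98 CPM in Gli1+ replicates 1, 2 and 3 and at 0.724, 1.26 and 2.43 CPM in the Gli1- replicates, without overlap. EdgeR gave it an unadjusted p of 0.0152 and an adjusted p of 0.9999. DESeq2 with the replicate number as a block gave an adjusted p of 0.0189, with 0.00391 to 1 across alternatives. Such ranges, here and below, include a block fit by DESeq2 without replicate 1 of both populations, chosen after seeing the data. That fit gave the lowest value of each range quoted, except for Fn1. Gli1+ replicate 1 stood apart, with 15000 genes holding a count against 20666 to 23360 in the other libraries. Summed markers of chondrocytes (10 genes, Col2a1 among them) lay between 6756 and 28079 CPM, with the highest sums in replicate 2 of both populations. Markers of neutrophils were high in Gli1- replicate 1 alone, although the sort was set against CD45. Across the 14801 genes tested, edgeR's quasi-likelihood test called none with a |log2FC| above 1 at an adjusted p under 0.05 (0% of genes), while for 514 genes the unadjusted p was under 0.05. DESeq2 called 30 genes, limma-voom 0, and DESeq2 with the replicate number as a block 428, of which 115 were higher in Gli1+ cells (0.777% of genes) and 313 lower (2.11%). In bulk RNA, fewer cells of a type and less RNA per cell cannot be told apart.

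Mmp13 was the member with the clearest separation. It (ENSMUSG00000050578, chromosome 9, 7272514 to 7283331, plus strand, mm10) stood at 5328, 2861 and 4859 CPM in Gli1+ replicates 1, 2 and 3. In the Gli1- replicates it stood at 457, 592 and 607 CPM. The lowest Gli1+ library lay well above the highest Gli1- library, and the Gli1- libraries were close to each other while the Gli1+ libraries were spread. The means were 4349 ± 1310 CPM (SD, n = 3) and 552 ± 82.7 CPM (SD, n = 3), which is 7.88-fold higher in Gli1+ cells (log2FC 2.98, standard error 0.54). Within the number-matched pairs Mmp13 was 11.7-fold, 4.83-fold and 8.0-fold higher in Gli1+ cells. With each library left out in turn its log2FC lay between 2.79 and 3.19. Mmp13 was the 5th, 44th and 9th most counted gene of the Gli1+ libraries, where it took 0.555%, 0.256% and 0.511% of all counts. In the Gli1- libraries it ranked 275th, 303rd and 180th.

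Mmp3, or stromelysin 1, cuts proteoglycans and fibronectin and is known to activate precursors of other metalloproteinases. It (ENSMUSG00000043613, chromosome 9, 7445822 to 7455975, plus strand) stood at 5218, 7947 and 16268 CPM in the Gli1+ replicates and at 2398, 2545 and 4374 CPM in the Gli1- replicates. The groups did not overlap, but the gap between the lowest Gli1+ library and the highest Gli1- library was small beside the spread within Gli1+ cells. The log2FC of Mmp3 was 1.66 with a standard error of 0.65, and the pairs showed it 2.18-fold, 3.12-fold and 3.72-fold higher in Gli1+ cells. Gli1+ replicate 3 held the highest level, and without it the log2FC was 1.08. Mmp3 was already among the most counted genes of the Gli1- libraries, at ranks of 21, 60 and 9, and it ranked 6th, 8th and 2nd in the Gli1+ libraries.

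Mmp13 and Mmp3 were the only members whose groups did not overlap. This is 2 of 10 members, both higher in Gli1+ cells, beside 4.04% of all genes tested without overlap in that direction and 4.45% in the other, where no member stood. Since the members were chosen on this contrast, nothing is read from these shares.

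**Figure D1:**
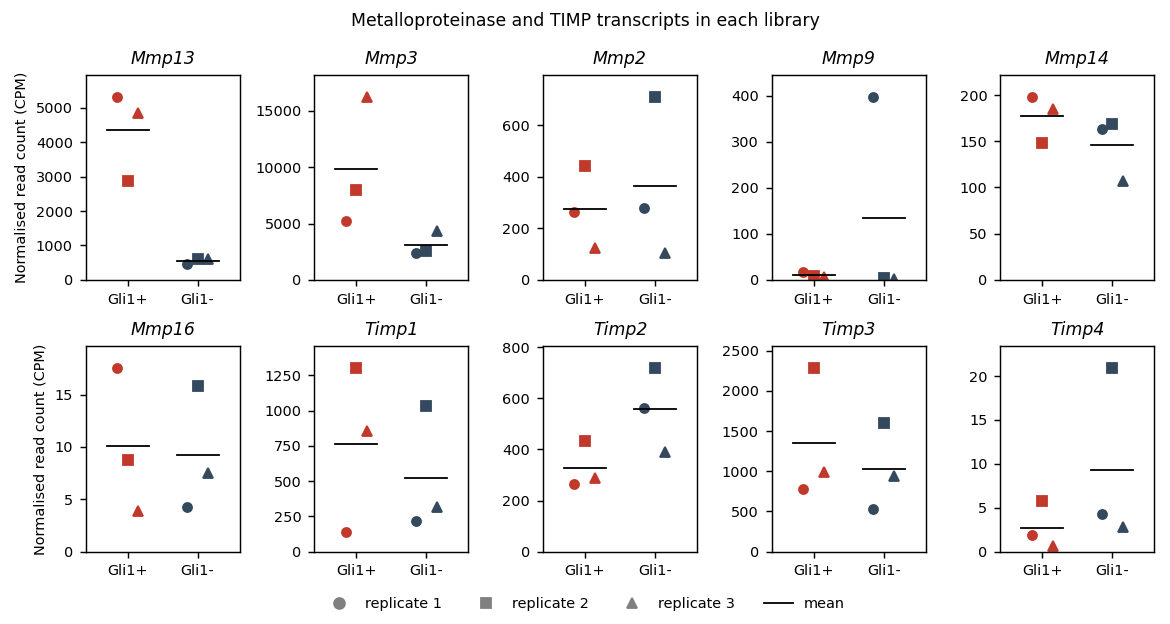
Normalised read counts (CPM, linear axes from 0, each panel with its own scale) of the 10 members in 3 Gli1+ and 3 Gli1- libraries. Symbols give the replicate number and lines the group mean. Mmp13 and Mmp3 are the panels without overlap, Mmp9 has 1 high Gli1- library at 399 CPM, and Timp1, Timp2, Timp3, Timp4 and Mmp2 have their highest value of each population in replicate 2.

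The gelatinases Mmp2 and Mmp9, which cut denatured collagen and type IV collagen, did not follow Mmp13. Mmp2 (chromosome 8, 92827291 to 92853420, plus strand), an enzyme typical of fibroblasts and other stromal cells, stood at 265, 442 and 123 CPM in the Gli1+ replicates and at 280, 710 and 103 CPM in the Gli1- replicates. Both populations had their highest Mmp2 level in replicate 2 and their lowest in replicate 3, and every Gli1+ library lay within the range of the Gli1- libraries. The log2FC was -0.40 with a standard error of 0.75, and it became 0.49 without Gli1- replicate 2. Summed fibroblast markers (8 genes) had the same order, with 996, 1292 and 122 CPM in the Gli1+ replicates and 1139, 4694 and 552 CPM in the Gli1- replicates. Their part in the Mmp2 levels was not tested.

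Mmp9 (chromosome 2, 164940780 to 164955850, plus strand), which osteoclasts and neutrophils make in large amounts, stood at 16.5, 7.49 and 6.36 CPM in the Gli1+ replicates. In the Gli1- replicates it stood at 399, 3.98 and 1.85 CPM. A single Gli1- library was therefore far above all others, and the other Gli1- libraries lay below every Gli1+ library. The log2FC of -3.74 (standard error 1.76) rests on Gli1- replicate 1 and was 1.79 without it. The 10 neutrophil markers summed to 3326 CPM in that library and to between 9.51 and 77.2 CPM in the other 5. S100a8 and S100a9, the calgranulins of neutrophil cytosol, stood there at 1145 and 1395 CPM, against at most 34.2 CPM in any other library. Ngp and Ltf, which encode granule proteins, reached 329 and 178 CPM in it. The macrophage list (8 genes) was highest in the same library too, at 730 CPM against 24.3 to 161 CPM elsewhere, of which Lyz2, a lysozyme gene that neutrophils also express, made up 581 CPM, and C1qc was at 3 counts or fewer everywhere. The osteoclast list behaved otherwise: its 7 genes summed to between 44.5 and 149 CPM in all libraries, with Calcr and Ocstamp at 3 counts or fewer everywhere. Mmp8, the neutrophil collagenase, and Mmp25, a membrane-anchored enzyme of leukocytes, were also high in Gli1- replicate 1, at 147 and 54.4 CPM, and reached no more than 2.80 CPM elsewhere. Mmp8 had a log2FC of -5.12 (edgeR, unadjusted p = 0.0373, adjusted p = 0.9999), which became 0.93 without that library. For Mmp25 the values were -3.34 (unadjusted p = 0.0567) and 0.53. The part of neutrophil or macrophage RNA in Mmp9, Mmp8 and Mmp25 was not tested.

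**Figure D2:**
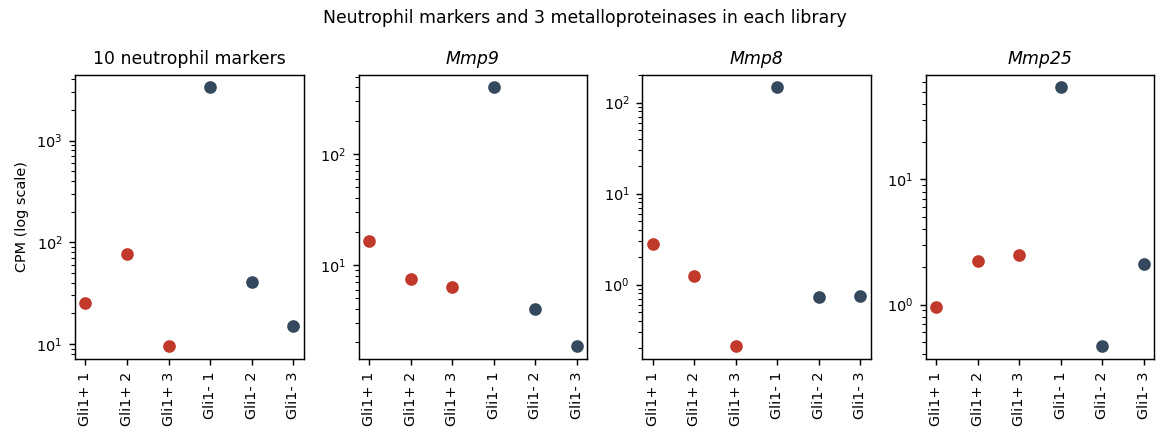
Summed CPM of 10 neutrophil markers and CPM of Mmp9, Mmp8 and Mmp25 in each of the 6 libraries, on log axes. In all 4 panels Gli1- replicate 1 is the highest library, at 3326, 399, 147 and 54.4 CPM.

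The membrane-type enzymes overlapped between the populations. Mmp14 (MT1-MMP; chromosome 14, 54431612 to 54445364, plus strand), which cuts collagen at the cell surface and activates the precursor of Mmp2, stood at 198, 148 and 185 CPM in the Gli1+ replicates and at 163, 169 and 107 CPM in the Gli1- replicates. The log2FC was 0.28 with a standard error of 0.39. Mmp16 (MT3-MMP; chromosome 4, 17852893 to 18119145, plus strand), a relative with a similar membrane anchor, was low, at 17.5, 8.78 and 3.89 CPM and at 4.24, 15.8 and 7.51 CPM. Its order among replicates differed between the populations. The log2FC of 0.13 (standard error 0.72) took the opposite sign without Gli1+ replicate 1, at -0.55.

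None of the 4 inhibitors separated the populations, and their directions were mixed, with 2 log2FC values above 0 and 2 below. Timp1 (chromosome X, 20870166 to 20874735, plus strand), a secreted inhibitor that inflammation and growth factors induce in many cells, stood at 140, 1301 and 859 CPM in the Gli1+ replicates and at 216, 1034 and 319 CPM in the Gli1- replicates. Both the lowest and the highest of the 6 levels belonged to Gli1+ cells. The log2FC of 0.55 (standard error 0.87) reached from -0.07 to 1.5 with single libraries left out.

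Timp3 (chromosome 10, 86300372 to 86349506, plus strand), which is bound to the matrix and also blocks aggrecan-cutting ADAMTS enzymes, stood at 784, 2281 and 989 CPM in the Gli1+ replicates and at 533, 1604 and 945 CPM in the Gli1- replicates. Each of the 3 pairs had more Timp3 in Gli1+ cells, by 1.47-fold, 1.42-fold and 1.05-fold, while the groups overlapped because replicate 2 was high in both. The log2FC was 0.40 with a standard error of 0.63, and -0.23 without Gli1+ replicate 2. In the annotation 1733 of its 8144 exonic bases lie opposite exons of Syn3, which itself reached 6.39 CPM at most.

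Timp2 (chromosome 11, 118301069 to 118355740, minus strand), which takes part with Mmp14 in activating the precursor of Mmp2, went the other way. It stood at 265, 433 and 288 CPM in the Gli1+ replicates and at 564, 718 and 388 CPM in the Gli1- replicates. In each of the 3 pairs Timp2 was lower in Gli1+ cells, at 0.469, 0.603 and 0.743 of the Gli1- level, and the groups overlapped through Gli1+ replicate 2 and Gli1- replicate 3. The log2FC was -0.76 with a standard error of 0.46 and kept its sign with each library left out (-1.02 to -0.57). Timp4 (chromosome 6, 115241892 to 115252205, minus strand), an inhibitor best known from heart and fat, was barely present, at 1.85, 5.71 and 0.630 CPM and at 4.29, 20.9 and 2.80 CPM. Timp4, too, was lower for Gli1+ cells in each pair (log2FC -1.77, standard error 1.03), by 2.32-fold, 3.66-fold and 4.45-fold. The size rests on replicate 2, since its log2FC became -0.41 with Gli1- replicate 2 left out and -2.92 with Gli1+ replicate 2 left out.

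**Figure D3:**
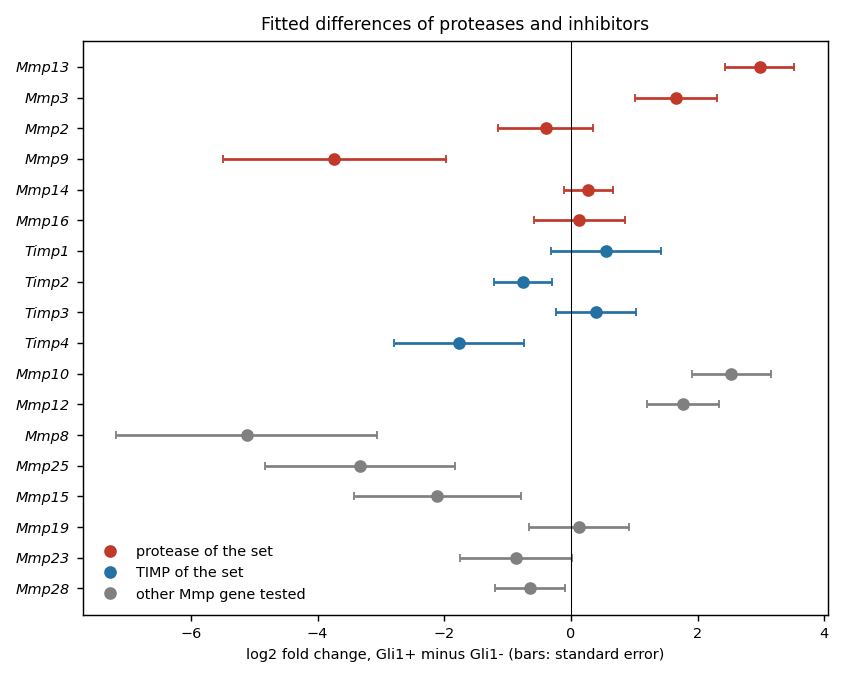
Log2FC of Gli1+ against Gli1- cells with its standard error from the edgeR fit, for the 6 proteases and 4 TIMPs of the set and 8 other Mmp genes that were tested; Mmp1b is left out because its Gli1- libraries held at most 3 counts. Mmp13 (2.98) lies farthest to the right, and Mmp9, Mmp8 and Mmp25, which rest on 1 library, have the widest bars together with Mmp15, at under 2 CPM.

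To set the members beside each other, CPM was divided by the length of the gene model in kb. On this scale Mmp3 led in both populations, with a mean of 5447 ± 3196 CPM per kb (SD, n = 3) in Gli1+ cells and 1724 ± 611 CPM per kb (SD, n = 3) in Gli1- cells. Mmp13 was second in Gli1+ cells, at 1627 ± 490 CPM per kb, followed by Timp1 at 863 ± 660 CPM per kb, and these neighbours did not differ beyond their spread. In Gli1- cells Timp1 was second at 589 ± 502 CPM per kb and Mmp13 came next at 206 ± 30.9 CPM per kb. Timp3, Timp2 and Mmp2 formed the middle of the order, between 82.0 and 166 CPM per kb in Gli1+ cells and between 108 and 143 CPM per kb in Gli1- cells, also without a difference beyond their spread. Mmp14 followed in Gli1+ cells at 29.7 ± 4.35 CPM per kb, and Mmp9, Mmp16 and Timp4 were at 2.86 CPM per kb or less there.

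Mmp3 and Mmp13 together made up 97.6%, 97.2% and 99.4% of the summed level of the 6 proteases in the Gli1+ replicates and 87.0%, 87.1% and 98.2% in the Gli1- replicates. Within this sum the share of Mmp13 alone was 39.8%, 19% and 16.6% in Gli1+ cells and 9.90%, 11.8% and 8.39% in Gli1- cells. Mmp13 stood at 0.688, 0.243 and 0.201 of the level of Mmp3 per length in Gli1+ cells and at 0.128, 0.157 and 0.0935 in Gli1- cells, so that this ratio did not overlap either. On the side of the inhibitors Timp1 supplied 49.0%, 78.9% and 83.2% of the summed TIMP level in Gli1+ cells and 53.5%, 75.2% and 62.4% in Gli1- cells.

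The 6 proteases summed to 5009, 5642 and 10920 CPM per kb in the Gli1+ replicates and to 1726, 1877 and 2705 CPM per kb in the Gli1- replicates, without overlap. The 4 TIMPs summed to 322, 1857 and 1163 CPM per kb and to 454, 1550 and 575 CPM per kb, with full overlap. The ratio of both sums was 15.5, 3.04 and 9.39 in Gli1+ cells and 3.8, 1.21 and 4.71 in Gli1- cells. In each of the 3 pairs it was larger for Gli1+ cells, but Gli1+ replicate 2 lay below 2 of the Gli1- libraries. Mmp13 alone over the TIMP sum gave 6.18, 0.576 and 1.56 in Gli1+ cells and 0.377, 0.143 and 0.395 in Gli1- cells, where the groups were separate. These ratios compare RNA levels and not amounts of protein.

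**Figure D4:**
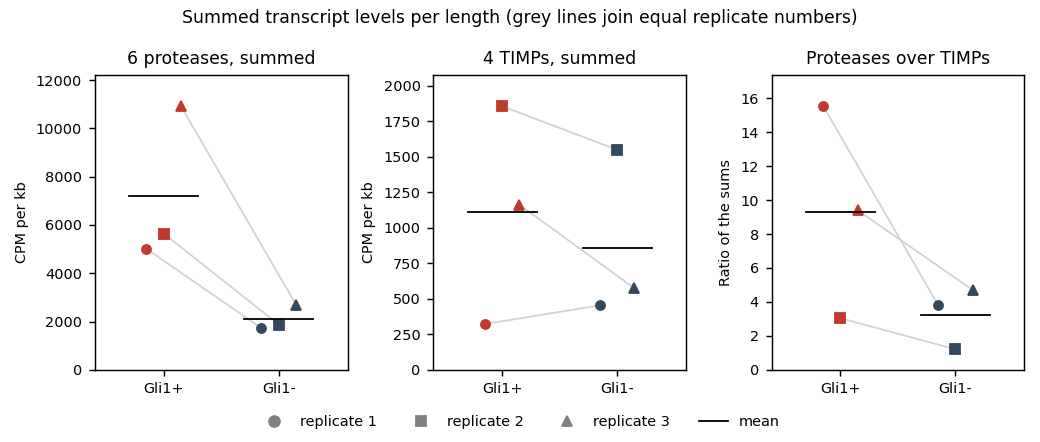
Summed CPM per kb of the 6 proteases and of the 4 TIMPs, and the ratio of both sums, in each library; black lines are means and grey lines join libraries with the same replicate number. The protease sums do not overlap, the TIMP sums do, and the ratio falls from Gli1+ to Gli1- in each of the 3 pairs.

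Mmp13 and Mmp3 lie in a cluster of 10 Mmp genes on chromosome 9 (7272514 to 7699585), of which 6 passed the filter on low counts. Mmp10 (stromelysin 2) and Mmp12 (macrophage elastase), which are not among the 10 members, also had separate groups. Mmp10 stood at 97.1, 26.8 and 108 CPM in the Gli1+ replicates and at 18.5, 7.89 and 13.9 CPM in the Gli1- replicates, and its log2FC was 2.53 (standard error 0.62). For Mmp10 edgeR gave 0.00346 as the unadjusted p and 0.9999 as the adjusted p. DESeq2 with the replicate block called it (adjusted p = 6.46e-07, and 3.49e-11 to 1 across alternatives). Mmp12 stood at 120, 294 and 253 CPM and at 31.0, 102 and 63.1 CPM, and its log2FC was 1.77 (standard error 0.57). Its lowest level was in Gli1- replicate 1, where the macrophage list was highest, mostly through Lyz2. Among the Gli1+ libraries both the macrophage list and Mmp12 were highest in replicate 2. Mmp12 was also highest among the Gli1- libraries in replicate 2, where the list stood at 161 CPM and Lyz2 at 4.05 CPM. In Gli1- replicate 3 the list stood at 44.9 CPM, and in Gli1- replicate 1 at 730 CPM, of which Lyz2 made up 581 CPM. The part of macrophage RNA in Mmp12 was not tested. The p-values of Mmp12 in edgeR were 0.0142 unadjusted and 0.9999 adjusted. DESeq2 with the replicate block called Mmp12 as well (adjusted p = 2.70e-06, and 2.98e-11 to 1 across alternatives).

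Mmp1b, a rodent relative of interstitial collagenase, was near the limit of detection. It had 44, 19 and 57 counts in the Gli1+ replicates and 3, 2 and 3 counts in the Gli1- replicates, a ratio of 14.8 after scaling (95% exact interval for counting error alone, 7.26 to 35.0). Its annotated exons share 157 of 1449 bases with the opposite strand of Mmp12, and the strand setting of the counting is not given in the sources used here, so reads of both cannot be told apart there. Mmp1a, its close copy next to Mmp3, had at most 5 counts outside Gli1+ replicate 1, which had 31. Mmp7, Mmp20 and Mmp27, at the far end of the cluster, had 3 counts or fewer in every library.

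The neighbours of the cluster were set beside it. Dcun1d5, the nearest coding gene before Mmp13, had a log2FC of 0.30 (standard error 0.39, unadjusted p = 0.469). Tmem123, the nearest coding gene tested beyond the cluster, had no overlap between groups and a log2FC of 0.69 (standard error 0.36, unadjusted p = 0.0935). Of 9 genes tested within 500 kb of the cluster, 0 had an unadjusted p under 0.05 in edgeR, and log2FC values reached from -0.40 to 1.18. Among these 9, 2 had separate groups with higher levels in Gli1+ cells, beside 4.04% of all genes in that direction. Outside the members, 4 genes of the cluster were tested. Mmp12 and Mmp10 had separate groups with higher levels in Gli1+ cells, beside 4.04% of all genes, and Mmp8 overlapped. Mmp1b passed the filter on low counts only through the Gli1+ libraries, so nothing is read from its separate groups.

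**Figure D5:**
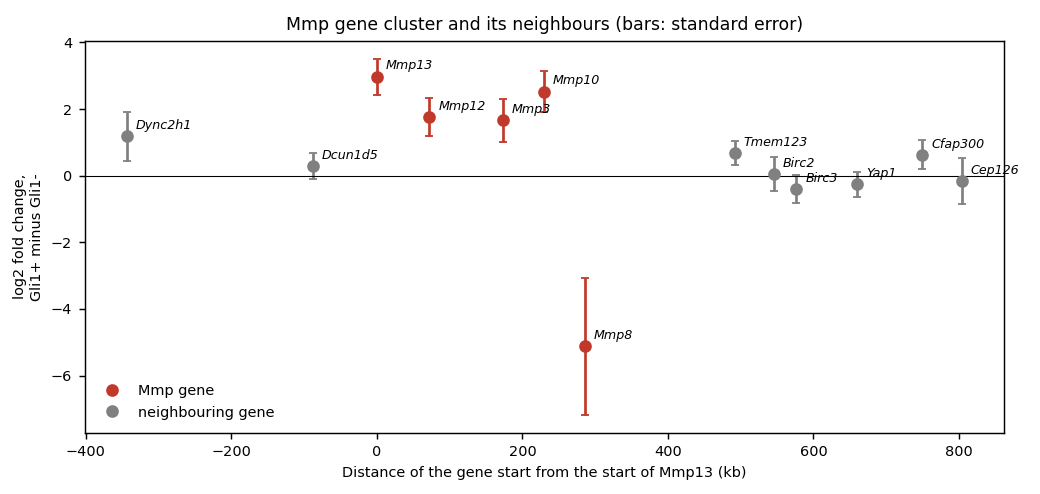
Log2FC with standard error against the distance of each gene's start from the start of Mmp13 in kb, for tested protein-coding genes of the cluster and its surroundings (Mmp1b is not drawn). Mmp13, Mmp12, Mmp3 and Mmp10 lie between 1.66 and 2.98, neighbouring genes between -0.40 and 1.18, and Mmp8, high in 1 Gli1- library, lies at -5.12.

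Collagenase and stromelysin genes are classic targets of AP-1, the dimers of Fos and Jun proteins, and Mmp13 is also a known target of Runx2. The 160 bases before the RefSeq start (GRCm38.p6, plus strand) are shown for the 2 members with separate groups and for Mmp10, because these collagenase and stromelysin transcripts had separate groups. Capitals mark matches to TGANTCA (AP-1) or ACCACA (Runx), searched on both strands. The windows are chr9:7272354-7272513, chr9:7445662-7445821 and chr9:7502182-7502341.
Mmp13: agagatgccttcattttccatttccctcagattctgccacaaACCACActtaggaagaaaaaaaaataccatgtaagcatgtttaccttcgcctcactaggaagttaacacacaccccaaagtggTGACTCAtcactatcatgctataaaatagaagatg
Mmp3: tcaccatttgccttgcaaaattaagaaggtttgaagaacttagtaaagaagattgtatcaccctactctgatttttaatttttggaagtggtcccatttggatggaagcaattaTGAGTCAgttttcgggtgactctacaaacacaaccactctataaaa
Mmp10: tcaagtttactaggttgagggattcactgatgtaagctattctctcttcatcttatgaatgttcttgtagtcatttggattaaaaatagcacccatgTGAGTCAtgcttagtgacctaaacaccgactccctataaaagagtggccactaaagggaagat

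The AP-1 match began 35 bases before the start in Mmp13, 46 bases before it in Mmp3 and 63 bases before it in Mmp10, and the Runx match of Mmp13 began at 118 bases. Promoters were found for 7 of the 10 members. Over 250 bases before the start, Mmp13 and Mmp3 held TGANTCA, and Mmp14, Timp1, Timp2, Timp3 and Timp4 did not. Among the genes of the chromosome 9 cluster 8 of 10 held it in at least 1 promoter, with Mmp8 and Mmp27 as the exceptions, against 0 of 12 Mmp and Timp genes elsewhere. Mmp12 and Mmp7 each had a further promoter without it. Counted by single promoters and not by genes, 6.75% of all 32851 promoters in the table held it. ACCACA was found in 14.0% of all promoters. Among the members Mmp14 held it too, at 114 bases before the start, and outside them Mmp1b, Mmp7, Mmp23 and Mmp27 did. The cluster genes are related copies and their promoters are not independent. A match is a string of letters and does not show that a factor is bound.

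The RNA of factors that act on these genes did not pass edgeR's test in either direction. Of 16 regulators known for Mmp13, 4 had a log2FC above 0 and 12 below, with a median of -0.64 (0.00133 over the whole table), and edgeR gave 0 of them an unadjusted p under 0.05. DESeq2 with the replicate block called 3 of them lower in Gli1+ cells (2.11% of all genes) and 0 higher (0.777% of all genes). The 3 were Jun (adjusted p = 6.05e-05, and 3.29e-09 to 1 across alternatives), Fos (0.00953, and 6.17e-05 to 1) and Fosb (0.0025, and 1.32e-05 to 1). Jun stood at 205, 1575 and 671 CPM in the Gli1+ replicates and at 764, 4191 and 1722 CPM in the Gli1- replicates, and edgeR gave -1.45 as its log2FC (unadjusted p = 0.137), or -0.62 without Gli1- replicate 2 and -2.35 without Gli1+ replicate 2. Junb (log2FC -1.17) and Ets1 (log2FC -0.35), the other most abundant regulators, were lower in 3 of 3 pairs, with overlap between groups. Runx2 stood at 19.1, 34.6 and 28.2 CPM and at 12.8, 19.6 and 22.8 CPM (log2FC 0.57, unadjusted p = 0.23). Epas1 was the regulator with separate groups and higher levels in Gli1+ cells, at 74.7, 43.9 and 50.2 CPM against 28.4, 26.1 and 40.7 CPM (log2FC 0.83, unadjusted p = 0.0757), and Fosl2 had separate groups with lower levels (log2FC -0.76, unadjusted p = 0.108). This is 1 of 16 regulators in each direction, beside 4.04% of all genes higher and 4.45% lower, so nothing is read from it. Jun, Fos and Junb were lowest in Gli1+ replicate 1, the library with the fewest genes detected and the highest Mmp13.

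Of the cytokines and receptors that induce Mmp13 and Mmp3 in joint disease, edgeR and DESeq2 with the replicate block called 0 higher in Gli1+ cells. Of 12 tested genes of this list, 3 had a log2FC above 0 and 9 below, and the 2 with an unadjusted p under 0.05 were both lower. Tlr4, a receptor of bacterial and matrix ligands, stood at 23.1, 19.96 and 11.0 CPM against 39.8, 38.6 and 38.0 CPM (log2FC -1.10, unadjusted p = 0.0295, adjusted p = 0.9999). Il1b, the prototype inducer of Mmp13, was at 80.5 CPM in Gli1- replicate 1, the library with neutrophil markers, and at 1.47 CPM or less in all others (log2FC -5.07, unadjusted p = 0.0288, and 0.54 without that library). Among all genes tested, 1.43% were higher and 2.04% lower at an unadjusted p under 0.05. DESeq2 with the replicate block called 1 gene of the list, Il6, which was lower in Gli1+ cells (adjusted p = 0.0278, and 0.00039 to 1 across alternatives). Of all genes, the block fit called 2.11% lower and 0.777% higher. The same fit without replicate 1 of both populations, chosen after seeing the data, called Il6 and Tlr4 lower and Tnf higher. Over the whole table it called 502 genes lower and 279 higher of 15331 tested. Tnf stood at 7.67, 56.7 and 43.1 CPM in the Gli1+ replicates and at 24.15, 17.97 and 7.935 CPM in the Gli1- replicates (log2FC 1.10, edgeR unadjusted p = 0.173).

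Genes of hypertrophic chondrocytes gave no common direction. Of the 9 listed, 4 had a log2FC above 0 and 5 below, with a median of -0.11, and 0 had an unadjusted p under 0.05 in edgeR. Col10a1, the collagen that defines hypertrophic cartilage, stood at 34.6, 285 and 72.0 CPM in the Gli1+ replicates and at 161, 1781 and 210 CPM in the Gli1- replicates (log2FC -2.46, standard error 1.13, unadjusted p = 0.0612). Without Gli1- replicate 2 the log2FC of Col10a1 was -0.53, and without Gli1+ replicate 2 it was -3.76. Col10a1 was lower in 3 of 3 pairs and was called lower by DESeq2 with the replicate block (adjusted p = 6.28e-07, and 2.06e-12 to 1 across alternatives), while Mmp13 was higher in each pair. Col10a1 was the 1 gene of these 9 that the block fit called, beside 2.11% of all genes called lower. Spp1, or osteopontin, and Vegfa had log2FC values of -0.54 and 0.47 with overlap. Sp7 and Panx3, picked after their values were seen, had separate groups with higher levels in Gli1+ cells. Sp7 stood at 5.08, 8.72 and 9.56 CPM against 0.672, 3.78 and 3.28 CPM. Panx3 was near the limit of detection, at 1.48, 1.97 and 1.42 CPM against 0.259, 0.928 and 0.635 CPM. These are 2 of the 9 genes, beside 4.04% of all genes without overlap in that direction.

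The matrix proteins that these enzymes cut gave no common direction either. Of 9 substrates, 3 had a log2FC above 0 and 6 below, and 0 had an unadjusted p under 0.05 in edgeR. Fn1, fibronectin, which Mmp3 and Mmp13 cut, stood at 69131, 15115 and 55915 CPM in the Gli1+ replicates and at 17186, 10090 and 24556 CPM in the Gli1- replicates (log2FC 1.44, unadjusted p = 0.106). It was higher in 3 of 3 pairs and was called by DESeq2 with the replicate block (adjusted p = 0.0389, the lowest of its alternatives, which reached 1). That call was lost without replicate 1 of both populations (log2FC 0.87, adjusted p = 0.768), and edgeR with the block gave an adjusted p of 0.448. DESeq2 with the replicate block also called Col3a1 lower (adjusted p = 0.00608, and 4.02e-10 to 1 across alternatives), whose log2FC of -1.25 became -0.37 with Gli1- replicate 2 left out and -1.93 with Gli1+ replicate 2 left out. The block fit thus called 1 of the 9 substrates higher and 1 lower, beside 0.777% of all genes higher and 2.11% lower. Col2a1, the main substrate of Mmp13 in cartilage, overlapped almost fully, with 2842, 12239 and 3240 CPM against 3060, 13534 and 2130 CPM. Decorin (Dcn) also had its highest level of each population in replicate 2, at 2623 and 4967 CPM.

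Of 14 tested genes that activate or restrain metalloproteinases, 7 had a log2FC above 0 and 7 below. Tfpi2, a secreted inhibitor of plasmin, which itself activates metalloproteinase precursors, was the single one with an unadjusted p under 0.05. It stood at 12.8, 6.20 and 9.66 CPM in the Gli1+ replicates and at 2.90, 3.98 and 2.59 CPM in the Gli1- replicates (log2FC 1.6, unadjusted p = 0.0187, adjusted p = 0.9999). DESeq2 with the replicate block called Pcolce, a helper of procollagen processing, lower (adjusted p = 0.00235, and 2.42e-05 to 1 across alternatives), although its log2FC of -1.25 became 0.93 without Gli1- replicate 2. Over the 5 lists, 60 genes were tested and edgeR called 0, with 3 at an unadjusted p under 0.05, while DESeq2 called 0 without the block and 8 with it, of which 1 was higher and 7 were lower. Of all genes tested, 1.43% were higher and 2.04% lower at that unadjusted p, and the block fit called 0.777% higher and 2.11% lower.

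The remaining Mmp genes were scarce. Of the 17 outside the members 9 were tested, and edgeR called 0, with 4 at an unadjusted p under 0.05 (Mmp1b, Mmp8, Mmp10 and Mmp12). Of these, Mmp1b had passed the filter only through the Gli1+ libraries. DESeq2 called 1 and DESeq2 with the replicate block 2, while limma-voom called 0. Among all 14801 genes tested, 1.43% were higher and 2.04% lower at an unadjusted p under 0.05 in edgeR. DESeq2 called 30 of them, and its fit with the block called 0.777% higher and 2.11% lower. Mmp28, or epilysin, stood at 3.17, 9.27 and 8.35 CPM in the Gli1+ replicates and at 9.31, 12.2 and 11.0 CPM in the Gli1- replicates (log2FC -0.64, unadjusted p = 0.277). Its groups were separate, with lower levels in Gli1+ cells, beside 4.45% of all genes in this direction. The groups of Mmp15 were separate too, with 0, 11 and 3 counts in the Gli1+ replicates and 34, 17 and 14 in the Gli1- replicates. It passed the filter on low counts mainly through the Gli1- libraries, so nothing is read from its separate groups. Mmp15, Mmp19 and Mmp23 were under 7 CPM in every library, with unadjusted p-values of 0.147, 0.877 and 0.351. Mmp11, Mmp17, Mmp21 and Mmp24 did not reach the filter and stayed at 1.06 CPM or less.

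Among 8450 genes with a mean of at least 10 CPM, those whose log2 CPM followed Mmp13 most closely over the 6 libraries were led by Arf2 (Pearson r = 0.989), Ttc39c (0.984), Ankrd6 (0.984) and Rgs12 (0.981). These coefficients describe 6 libraries that fall into 2 groups, so genes with separate groups tend to score high. Ankrd6, a Wnt pathway regulator, stood at 31.1, 18.4 and 22.7 CPM in the Gli1+ replicates and at 1.91, 2.72 and 4.50 CPM in the Gli1- replicates, with replicate 2 lowest among the Gli1+ libraries as for Mmp13. Of the family, Mmp10 came nearest (r = 0.899, rank 58), before Mmp3 (0.815, rank 173) and Mmp12 (0.788, rank 218). Timp2 was at the other end, at r = -0.82 and rank 8247, and Timp1 (0.0718) and Timp3 (0.192) followed Mmp13 little. Without Gli1+ replicate 1 the coefficient of Mmp3 was 0.96 and that of Timp1 0.655.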

How the data were processed

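The authors deposited 1 table of raw counts per gene for the 6 libraries, with no normalization and no pooling. Per the labels, reads were aligned to mm10 with HISAT2 2.0.5 and counted with featureCounts 1.5.0-p3. The use of strand is not given in the sources used here. Poly-A selected RNA was sequenced without molecular identifiers, so intervals cover counting error only. Gene coordinates of all 27 Mmp and Timp genes equalled GENCODE M21. Totals lay between 17114101 and 18602482 counts, and the number of sample columns not used was 0.

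Log2 CPM values were computed with a prior count of 2. Genes were filtered with filterByExpr of edgeR 4.0.16 in R 4.3.3 (minimum count of 10), which left 14801, scaled by TMM and fitted with the quasi-likelihood test of edgeR (no block). Benjamini-Hochberg adjustment covered every gene tested. The standard errors given with log2FC values were derived from this fit, as the |log2FC| divided by the square root of the quasi-likelihood F statistic. Alternatives used DESeq2 1.42.0, limma-voom (limma 3.58.1), other scalings, no filter, the replicate block and each library left out. A fit by DESeq2 with the block and without replicate 1 of both groups was chosen after seeing the data and is included in the ranges across alternatives. The edgeR, DESeq2 and limma-voom fits were checked on simulated counts. Deviations of same-numbered libraries correlated across genes at 0.223, 0.720 and 0.471, all over 0.1, so the numbers, which the labels give, were taken to pair libraries of the same mice. Gli1+ replicate 1 also correlated with Gli1- replicate 3 (0.274), above its own number, and Gli1+ replicate 3 with Gli1- replicate 1 (0.107). Members and lists were chosen with earlier results of these data known. Named were the members, Gli1, all Mmp genes, list genes with an unadjusted p under 0.05 or else the 3 most abundant (for lists of other cell types, only those the text needs), and the 5 genes most like Mmp13, of which 1 is not reported here. Runx2, Fos, Fosb, Fosl2, Epas1, Il6, Tnf, Sp7, Panx3, Col3a1, Pcolce, Calcr, Ocstamp and C1qc fall outside this rule and were chosen after their values were seen, as were Dcun1d5 and Tmem123 for their position. Sequences are from RefSeq. Figures were drawn with matplotlib 3.10.9.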

Additional observations from a re-analysis of the deposited data

How the results depend on the processing

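The log2FC of Mmp13 stayed between 2.63 and 3.19 over 14 alternatives, and those of Mmp3 (1.08 to 1.99), Mmp14, Timp2 and Timp4 kept their sign in all of them. Mmp2, Mmp9, Mmp16, Timp1 and Timp3 took the opposite sign in 1, 2, 4, 1 and 1 of the 14, and that of Mmp9 was -0.16 under DESeq2 with the replicate block, -0.26 under edgeR with it and -0.68 under limma-voom. The protease sum over the TIMP sum had a difference of 1.45 between the mean log2 ratios, 1.55 from counts, 1.94 without Mmp3 and 0.85 to 2.12 with single libraries left out. Of the 5 genes closest to Mmp13, 1 remained among the closest 5 without Gli1+ replicate 1.

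The number of genes called depended on the tool, filter and pairing. Over the whole table it was 0 in edgeR, 267 without the filter on low counts, 30 in DESeq2, 428 in DESeq2 with the replicate block and 781 in the same fit without replicate 1 of both populations. Of the Mmp genes outside the members, 3 were called without the filter (Mmp10, Mmp8 and Mmp25), 1 by DESeq2 (Mmp10), 2 with the block and 2 with the block and without replicate 1 (Mmp10 and Mmp12 in both). Of the 5 lists, 2 genes were called without the filter, 8 by DESeq2 with the block and 14 in that fit without replicate 1. The edgeR fit with the replicate block called 0 in each case, as did limma-voom, the other scalings and each fit with a library left out. The cause was not tested.

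With single libraries left out, log2FC values that took the opposite sign reached from -5.83 to 0.54 for Il1b, -1.45 to 0.22 for Spp1, -0.072 to 0.75 for Vegfa, -3.91 to 0.93 for Pcolce, -6.17 to 0.93 for Mmp8, -0.10 to 0.38 for Mmp19, -1.28 to 0.39 for Mmp23 and -3.96 to 0.53 for Mmp25. DESeq2 with the block and without replicate 1 gave 0.45 for Il1b and 1.14 for Mmp25, since it leaves out the library in which both were high. Depth did not limit the abundant members, but Timp4 rests on 12 to 315 counts in each library and Mmp1b on 8 counts in all Gli1- libraries together.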
